A study of Mus musculus with 10 samples.

Results

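Coenzyme Q biosynthesis is described here by 10 genes, *Pdss1*, *Coq2*, *Coq3*, *Coq4*, *Coq5*, *Coq6*, *Coq7*, *Coq8a*, *Coq8b* and *Coq9*, in the RNA of hematopoietic stem cells (HSCs) with and without *Cited2*. The genes were chosen by name, as enzymes and accessory proteins of the pathway, with the genotype comparison of these same libraries already known, in which *Coq8a* was among the genes called. Their genotype differences are therefore given as a description, without p-values. All 10 were found among the 26146 genes of the deposited table, and all 10 passed the filter on low counts that left 14165 genes tested. HSCs were sorted from mouse bone marrow as LSK CD48- CD150+ cells, and polyadenylated RNA was sequenced in bulk. Control mice (*Cited2* CTL, labelled wildtype, n = 5) were *Cited2* fl/fl without Cre, so the floxed alleles were shared by both groups. Knockout mice (*Cited2* CKO, n = 5) were *Cited2* fl/fl;*Vav-iCre*, in which Cre is expressed in the hematopoietic system and deletes *Cited2* in all its lineages, not in HSCs alone. The mice were on a C57BL/6J background and aged 8 to 12 weeks, with 5 animals and 5 libraries per genotype. CITED2 is a transcriptional regulator that binds CBP/p300 and competes with HIF-1alpha for it.

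Coenzyme Q (ubiquinone) is a lipid with a redox-active ring and a long isoprenoid tail. In the inner mitochondrial membrane it carries electrons from complexes I and II and from several other dehydrogenases to complex III, and it is also a membrane antioxidant. PDSS1, with PDSS2, makes the tail from isoprenoid precursors of the mevalonate pathway, and COQ2 joins the tail to the ring precursor. COQ3, COQ5, COQ6 and COQ7 then methylate and hydroxylate the ring, and COQ4 and COQ9 hold the enzymes in a complex on the membrane, where COQ9 presents the lipid to COQ7. COQ8A (also called ADCK3) and its paralog COQ8B (ADCK4) are atypical kinases of the UbiB family that the complex needs, with ATPase activity and no known place as a step in the ring chemistry. HSCs at rest are known for relying more on glycolysis than on respiration.

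Total counts ranged from 3058690 to 4548795 in the CTL libraries and from 3500215 to 4315029 in the CKO libraries. The markers of HSCs were present in every library (9 of 9 genes, summed level 1861 to 2151 CPM in CTL and 1646 to 1837 CPM in CKO), so the labelled cell type had its defining genes. CPM are counts scaled to the library total after TMM normalization. The summed HSC markers of every CKO library lay below those of every CTL library, and the part of this in the differences described here was not tested. Summed levels for markers of other cell types overlapped between the genotypes: 13.2 to 35.7 CPM in CTL and 16.2 to 25.3 in CKO for the erythroid markers, 396 to 756 and 374 to 587 for granulocyte and monocyte markers, 397 to 479 and 389 to 531 for megakaryocyte markers, and 52.9 to 86.0 and 56.4 to 76.6 for B and T cell markers. None of these marker genes was called, and none was at 0 in all libraries. The granulocyte marker *Mpo* was at 189.7 CPM in CTL 5 and 108.3 CPM in CKO 5. In every other library *Mpo* was at 6.18 to 19.99 CPM. *Elane*, from the same list, was at 62.4 CPM in CTL 5 and 16.4 CPM in CKO 5, against 0.758 to 4.87 CPM elsewhere. The part of this in the coenzyme Q values of CTL 5 and CKO 5 was not tested. *Cited2* itself was at 101.3 to 221.6 CPM in the CTL libraries and at 3.80, 4.21, 5.00 and 8.30 CPM in CKO 1, 2, 4 and 5. The library labelled CKO 3 had 120.1 CPM of *Cited2*, within the CTL range, and the differences of *Coq8a* and *Coq6* are also given without it.

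All coordinates are of the GRCm38 genome build, with genes as in GENCODE. *Coq8a* lies at chr1:180165238-180199602 on the minus strand, *Coq8b* at chr7:27233023-27257950 on the plus strand and *Coq2* at chr5:100654723-100675140 on the minus strand. *Coq3* lies at chr4:21879673-21912162, *Coq4* at chr2:29787493-29797935, *Coq5* at chr5:115279666-115296972 and *Coq6* at chr12:84361657-84373796, each on the plus strand. *Coq7* lies at chr7:118509659-118533356 on the minus strand, *Coq9* at chr8:94838321-94854895 on the plus strand and *Pdss1* at chr2:22895522-22940266 on the plus strand. The pathway is thus not a cluster of genes: where a pair shares a chromosome, as *Coq4* and *Pdss1* do, their positions do not overlap.

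RefSeq promoter windows of GRCm38.p6, each 250 bases before and 50 bases after an annotated start, were given for 8 of the 10 genes (10 windows in all, 2 for *Coq8a* and 2 for *Coq3*). Several short motifs were searched in these windows, and the CCAAT box (letters CCAAT, either strand) is the one shown in detail. It was chosen for display with the genotype differences of the members known, so its match with them is not a test. *Coq8a* and *Coq6*, the members with the lowest CKO levels relative to CTL, both had 3 CCAAT boxes in a window, and *Coq7* had 2. The second *Coq8a* start and the windows of *Pdss1*, *Coq2*, *Coq3*, *Coq4* and *Coq9* had none. The sequences show these boxes in capitals, as CCAAT on the gene's strand or as ATTGG where the box is on the other strand, and each is given 5′ to 3′ on the gene's own strand. The RefSeq starts used for *Coq8a* (first start, at 180196020) and *Coq6* (84361968) lie inside the GENCODE spans of these genes, as do their printed stretches. The *Coq7* start (118533356) is the end of its GENCODE span, and its stretch lies outside that span. Only bases that GENCODE places in no exon are printed, which leaves out the 55 bases nearest the start of *Coq8a*, with the box nearest to it, and parts of both ends for *Coq6*.
*Coq8a*, chr1:180196076-180196270, minus strand: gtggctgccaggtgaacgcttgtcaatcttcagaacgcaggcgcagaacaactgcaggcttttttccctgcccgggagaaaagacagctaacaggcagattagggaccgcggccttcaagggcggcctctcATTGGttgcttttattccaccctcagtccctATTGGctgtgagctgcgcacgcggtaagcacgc
*Coq6*, chr12:84361834-84361952, plus strand: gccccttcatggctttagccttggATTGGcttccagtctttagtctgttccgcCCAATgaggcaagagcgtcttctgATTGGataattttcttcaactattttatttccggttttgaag
*Coq7*, chr7:118533357-118533606, minus strand: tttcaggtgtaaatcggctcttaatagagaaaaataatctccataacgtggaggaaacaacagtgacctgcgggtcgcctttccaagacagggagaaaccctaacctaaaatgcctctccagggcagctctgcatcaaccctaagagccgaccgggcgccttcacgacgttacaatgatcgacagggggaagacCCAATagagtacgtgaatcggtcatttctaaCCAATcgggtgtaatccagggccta

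The first bases of the boxes stood at -119, -88 and -7 from the start in *Coq8a*, at -110, -81 and -57 in *Coq6* and at -56 and -25 in *Coq7*. At least 3 CCAAT boxes were found in 3.37% of all 32851 promoter windows, and in 5.59% of the 10966 tested genes with a window. At least 2 were found in 11.7% of the windows, and in 16.3% of the tested genes with a window. The number of boxes did not go with a large genotype difference across genes: the median log2 fold change (CKO minus CTL) was 0.01 for the 6241 tested genes without a box and -0.03 for the 613 with 3 or more. The letters GCGTG, a form of the core that HIF factors bind, occurred 3 times in the first *Coq8a* window, 2 times in the second and 4 times in that of *Coq9*. At least 3 were held by 3.91% of all windows, and by 8.49% of the tested genes with a window. ACGTG, another form of this core, occurred 2 times each in *Coq4* and *Coq7*, 1 time in *Pdss1* and 0 times in *Coq8a*. TGCGCA, the core that the factor NRF1 binds, occurred 2 times in the first *Coq8a* window. It occurred 1 time each in the *Coq2* window and the second *Coq3* window, and 0 times in *Coq6*. At least 2 were held by 1.05% of all windows, and by 2.41% of the tested genes with a window. The motifs were searched after the values were seen, and a match is not evidence of binding.

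**Figure D1:**
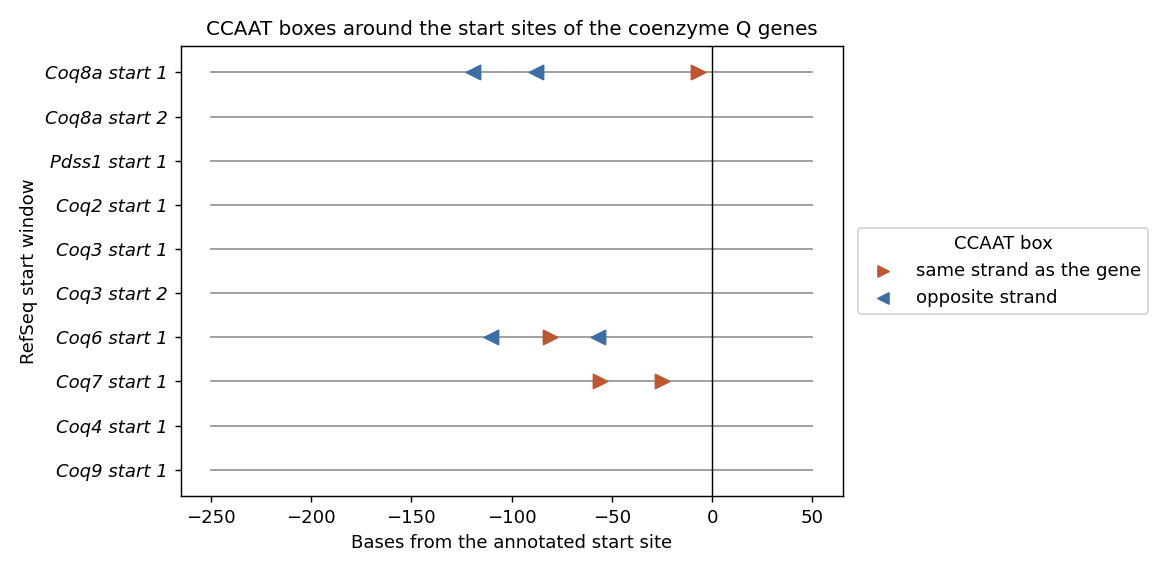
CCAAT boxes in the RefSeq windows of 8 coenzyme Q genes, plotted by distance in bases from the annotated start (vertical line at 0), with 1 line per window and triangles pointing along the strand of the box. *Coq8a* start 1 and *Coq6* have 3 boxes each and *Coq7* has 2, and the other 7 windows have none. Other motifs that were searched are not plotted.

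The first question was how strongly HSCs express each step of the pathway. Levels were compared between genes as TPM, counts scaled to the deposited gene length and then to a fixed library total. In the CTL libraries *Coq2*, which attaches the tail, was highest at 173 ± 13.8 TPM (mean ± SD, n = 5), and its range over libraries lay above that of every other member. Next came *Coq9* at 126 ± 8.15, *Coq7* at 112 ± 12.5, *Coq8a* at 99.5 ± 12.5, *Coq6* at 92.4 ± 13.2 and *Coq5* at 86.3 ± 4.96 TPM. In this run of genes each overlapped its neighbour in the order over the CTL libraries. *Pdss1*, at 68.7 ± 8.57 TPM, lay below the range of *Coq5*, and was followed by *Coq4* at 46.5 ± 6.49, *Coq3* at 37.0 ± 6.81 and *Coq8b* at 27.0 ± 4.26 TPM, again with overlapping neighbours. The lowest and highest members therefore came from different roles, with the kinase paralog *Coq8b* at the bottom and *Coq8a* near the middle.

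**Figure D2:**
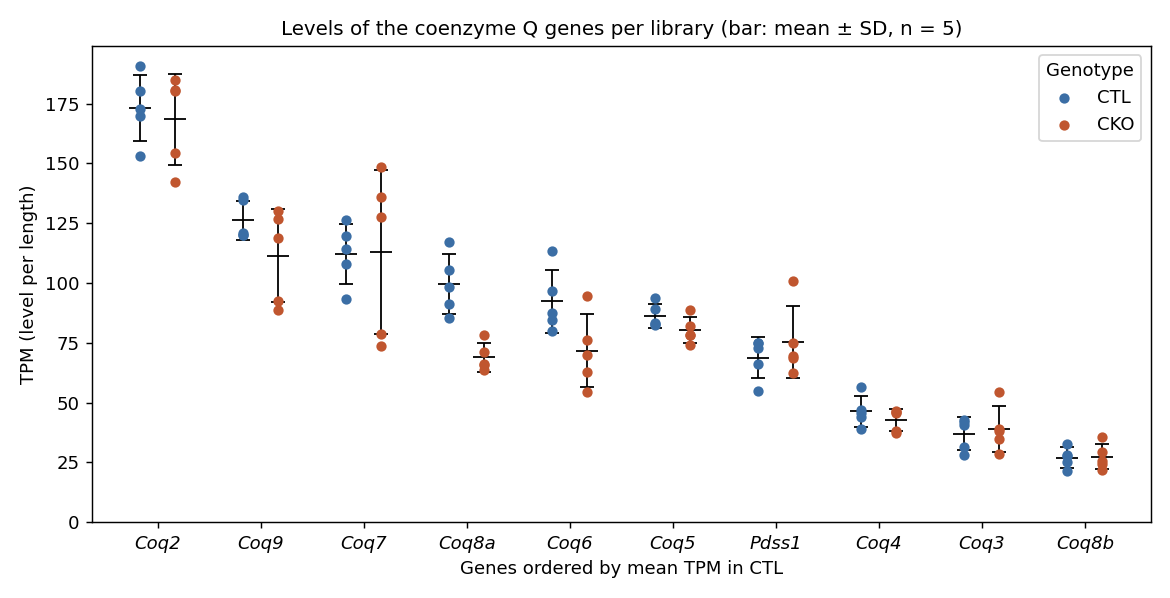
TPM of the 10 coenzyme Q genes in each library (points), ordered by the CTL mean, with bars for the mean ± SD of 5 libraries per genotype. *Coq2* leads in both genotypes, and *Coq8a* is the 1 gene whose CKO points all lie under its CTL points.

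In the CKO libraries the order of TPM levels kept *Coq2* first (168.5 ± 19.0) and *Coq4*, *Coq3* and *Coq8b* last. *Coq8a* stood at rank 7 in CKO against rank 4 in CTL, at 68.9 ± 6.01 TPM. The summed TPM of the 10 genes was 869 ± 35.3 in CTL and 798 ± 94.5 in CKO, with overlapping ranges (808 to 894 and 694 to 897). Without *Coq8a* the sums were 770 ± 29.0 and 729 ± 99.5 TPM. *Coq8a* made up 10.3% to 13.1% of the summed TPM in the CTL libraries and 7.38% to 11.2% in the CKO libraries. The spread of the sum was wider in CKO, where the libraries CKO 1 and CKO 2 were lowest at 694 and 700.1 TPM.

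The second question was whether any step of the pathway differed in level between *Cited2* CTL and *Cited2* CKO HSCs. Of the 10 genes, 1 (*Coq8a*, lower in CKO) was called, where 0.226% of the 14165 genes tested were called in either direction (edgeR, adjusted p under 0.05 and fold change above 20%). Likewise 1 of 10 had all CKO libraries below all CTL libraries, against 1.98% of all genes tested. Since *Coq8a* was known to be called when the genes were chosen, nothing is read from these counts. The median log2 fold change of the 10 genes was -0.07, with 6 negative and 4 positive values, and that of all genes tested was 0.01. In bulk RNA, fewer cells of a type that express a gene and less RNA of it per cell cannot be told apart.

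*Coq8a*, the kinase-like gene, had 161.5, 201.6, 145.5, 177.7 and 165.2 CPM in CTL 1 to 5. Its CPM in CKO 1 to 5 was 120.5, 134.1, 112.0, 111.4 and 113.4. All CKO libraries were below the lowest CTL library, and the CKO values lay closer to each other than those of CTL. The mean was 170.3 ± 20.9 CPM in CTL and 118 ± 9.55 CPM in CKO, or 69.5% of CTL, and the log2 fold change was -0.53 (standard error 0.09, 95% interval -0.73 to -0.32). These values rest on 379 to 798 counts per library. Without the library labelled CKO 3 the log2 fold change was -0.51, and leaving out each library in turn gave -0.58 to -0.46. The call was less stable than the size: it was kept in 1 of those 10 fits, the one without CTL 3, and was lost when the fit carried an offset for GC content and length (log2 fold change -0.43).

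*Coq8b*, which encodes the paralogous kinase, was at 31.1, 26.0, 25.6, 19.3 and 22.5 CPM in CTL 1 to 5, and at 19.97, 22.3, 23.6, 33.5 and 27.2 CPM in CKO 1 to 5. The groups overlapped almost entirely, and the log2 fold change was 0.03 (standard error 0.19, 95% interval -0.38 to 0.43). At 79 to 118 counts per library *Coq8b* was less precisely measured than *Coq8a*, so a moderate difference in either direction lies within its interval. The ratio of *Coq8a* to *Coq8b* in TPM was 2.79, 4.16, 3.06, 4.96 and 3.94 in CTL 1 to 5. In CKO 1 to 5 this ratio was 3.24, 3.24, 2.55, 1.79 and 2.24. *Coq8a* was thus the more abundant paralog in every library, and the ratios of the genotypes overlapped.

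**Figure D3:**
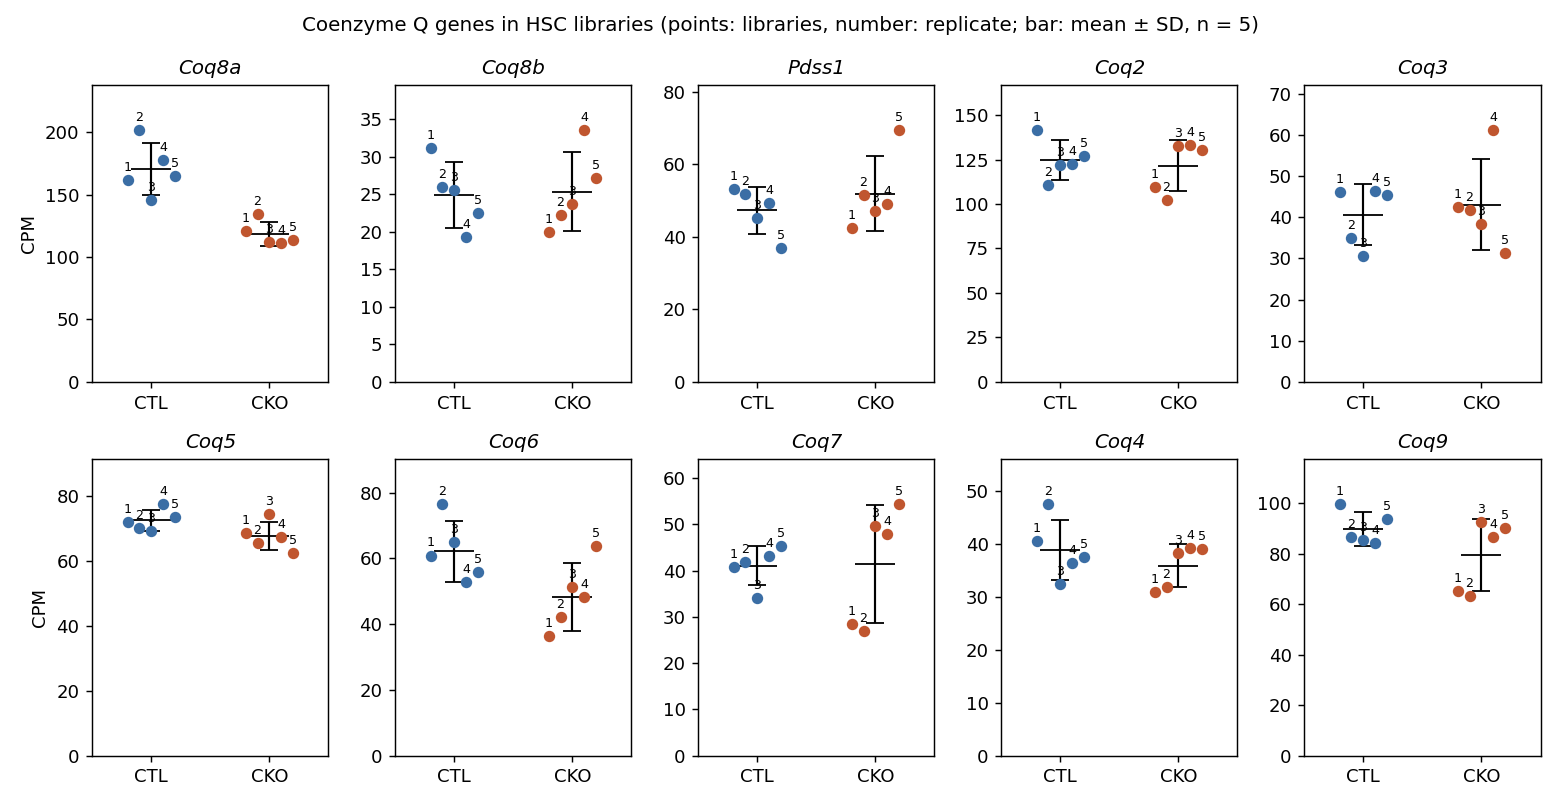
CPM of each coenzyme Q gene in the 5 CTL (blue) and 5 CKO (red) libraries, with replicate numbers beside the points and bars for the mean ± SD. The genotypes are separate for *Coq8a*, 4 of 5 CKO points lie under all CTL points for *Coq6*, and for *Coq7* and *Coq9* the points of CKO 1 and 2 lie apart from those of CKO 3, 4 and 5.

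Among the genes of the tail, *Pdss1* was at 53.2, 51.8, 45.3, 49.2 and 37.0 CPM in CTL 1 to 5, and at 42.5, 51.5, 47.0, 49.1 and 69.4 CPM in CKO 1 to 5. *Pdss1* had the highest log2 fold change of the 10 genes, 0.14 (standard error 0.15, 95% interval -0.19 to 0.47), with CKO 5 above and the other CKO libraries inside the CTL range. *Coq2* was at 141.5, 110.6, 121.7, 122.4 and 127.1 CPM in CTL, and at 109.8, 102.2, 132.8, 132.9 and 130.2 CPM in CKO. CKO 1 and 2 were the lowest of all 10 libraries for *Coq2*, and the genotype means nearly coincided (124.7 ± 11.2 and 121.6 ± 14.5 CPM, log2 fold change -0.04, 95% interval -0.25 to 0.18).

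Of the ring-modifying enzymes, the flavin-dependent hydroxylase gene *Coq6* came nearest to *Coq8a*. It was at 60.9, 76.5, 65.0, 52.9 and 55.8 CPM in CTL 1 to 5 and at 36.4, 42.1, 51.3, 48.2 and 63.8 CPM in CKO 1 to 5. The CKO libraries other than CKO 5 were below the lowest CTL library, and CKO 5 was inside the CTL range. The mean was 62.2 ± 9.26 CPM in CTL and 48.4 ± 10.4 CPM in CKO (77.7% of CTL), and the log2 fold change was -0.36 (standard error 0.16, 95% interval -0.70 to -0.02). *Coq6* was not called. Without CKO 5 its log2 fold change was -0.49, and without the library labelled CKO 3 it was -0.38.

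*Coq5*, a methyltransferase gene, was the steadiest member, with a coefficient of variation of 4.54% over the CTL libraries. Its CPM was 71.9, 70.2, 69.1, 77.5 and 73.5 in CTL and 68.5, 65.6, 74.5, 67.3 and 62.4 in CKO, a log2 fold change of -0.10 (95% interval -0.30 to 0.10). The CKO libraries were below the lowest CTL library except for the library labelled CKO 3. The other methyltransferase gene, *Coq3*, was at 46.1, 34.9, 30.6, 46.3 and 45.3 CPM in CTL and at 42.5, 41.8, 38.3, 61.1 and 31.3 CPM in CKO. The 2 highest and 2 lowest values of *Coq3* were spread over both genotypes, and its log2 fold change was 0.08 (95% interval -0.32 to 0.48).

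*Coq7*, the second hydroxylase gene, had similar means in the genotypes but a different spread. Its CPM was 40.8, 41.9, 34.1, 43.1 and 45.3 in CTL 1 to 5 and 28.5, 27.0, 49.6, 47.9 and 54.4 in CKO 1 to 5. CKO 1 and 2 lay below all CTL libraries and CKO 3, 4 and 5 above all of them. The log2 fold change was accordingly 0.01 (95% interval -0.41 to 0.44), while the coefficient of variation was 10.3% in CTL and 30.8% in CKO.

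The genes that organise the complex behaved like *Coq7* in part. *Coq9* was at 99.7, 86.4, 85.3, 84.1 and 93.9 CPM in CTL and at 65.1, 63.1, 92.4, 86.7 and 90.3 CPM in CKO (log2 fold change -0.18, 95% interval -0.44 to 0.09). CKO 1 and 2 were again below all other libraries, and CKO 3, 4 and 5 were inside the CTL range. *Coq4* was at 40.5, 47.5, 32.3, 36.3 and 37.4 CPM in CTL and at 30.9, 31.9, 38.3, 39.1 and 38.9 CPM in CKO (log2 fold change -0.12, 95% interval -0.43 to 0.20). CKO 1 and 2 were the lowest libraries for *Coq4* too, though by less than 2 CPM.

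The levels of several members followed each other across libraries within the genotypes. Pearson's r of log2 CPM was computed over the 10 libraries after the mean of each genotype was taken off, as a description, since all points share library depth and composition. Of 45 pairs, 33 had a positive r, with a median of 0.24. The highest values were 0.91 for *Coq2* with *Coq9* and 0.91 for *Coq7* with *Coq9*, followed by 0.76 for *Coq2* with *Coq7*, 0.71 for *Coq4* with *Coq7* and 0.70 for *Coq4* with *Coq6*. CKO 1 and 2 were low for each of these genes. For *Coq8a* the values ran lower: its r was -0.70 with *Coq2*, -0.52 with *Coq9*, -0.35 with *Coq8b*, -0.29 with *Coq7*, -0.08 with *Coq6*, -0.01 with *Coq5*, 0.05 with *Coq3*, 0.12 with *Pdss1* and 0.27 with *Coq4*. By the same measure *Coq8a* was set against the 9968 genes whose mean log2 CPM was 4 or more, and the median r was 0.03. The genes most like it were *Tmx4* (r = 0.97), *Gemin5* (0.90), *Rnf20* (0.88), *Pdlim1* (0.86) and *Terf2ip* (0.86). They were picked as the highest of many values, each over 10 libraries, and a link with *Coq8a* was not tested. None of these 5 genes was called between the genotypes (log2 fold changes -0.11, -0.09, 0.12, -0.29 and 0.07, edgeR adjusted p = 0.221 to 0.843).

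**Figure D4:**
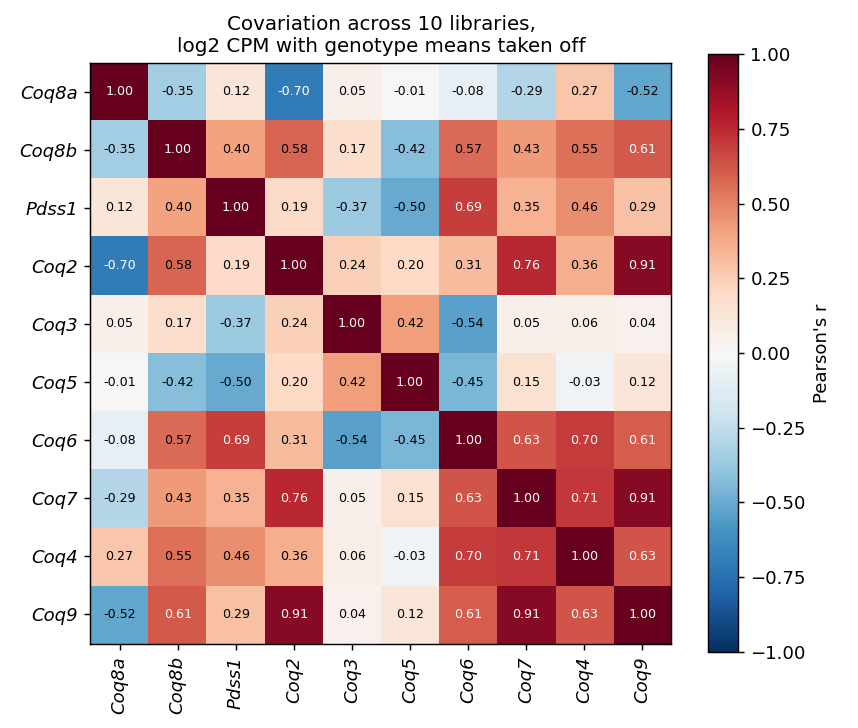
Pearson's r between the coenzyme Q genes over 10 libraries, on log2 CPM with the mean of each genotype taken off, from -1 (blue) to 1 (red). *Coq2*, *Coq7* and *Coq9* form the block of highest values (0.76 to 0.91), and *Coq8a* has its lowest value with *Coq2* (-0.70).

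The GC content of the transcripts moved with genotype in these libraries. In the CKO libraries GC-rich genes were lower relative to GC-poor ones: the median log2 deviation of the GC-richest quartile of genes minus that of the GC-poorest was 0.05 to 0.18 in the CTL libraries and -0.29 to 0.01 in the CKO libraries. *Coq8a* has a GC content of 52.8%, and the 1372 tested genes within 1 percentage point of it had a median log2 fold change of -0.09, against -0.53 for *Coq8a*. For *Coq6* (52.6% GC) the 1360 such genes had a median of -0.09, and for *Coq9*, the GC-richest member at 55.6%, the median was -0.16, close to its own -0.18. *Pdss1*, the GC-poorest at 39.2%, had neighbours in GC content with a median of 0.13, close to its own 0.14. With the GC and length offset the log2 fold changes were -0.28 for *Coq6*, -0.00 for *Coq9* and 0.01 for *Pdss1*. The offset can also take away a genotype effect that follows GC content.

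Exons of *Coq8a* overlap those of *Cdc42bpa* on the opposite strand over 366 of 5293 bases (6.91%), and the log2 fold change of *Cdc42bpa* was -0.19 (standard error 0.11, edgeR adjusted p = 0.474). For *Coq4* the overlap with *Trub2* took 27.1% of the exon bases, with a log2 fold change of 0.24 for *Trub2* (edgeR adjusted p = 0.668). *Coq6* shares 4.07% of its exon bases with *Fam161b* (-0.43, edgeR adjusted p = 0.727). Use of strand in counting is not given in the sources used here, so reads from these stretches cannot be assigned to 1 of the genes.

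The third question was whether the rest of the pathway, from precursors to the enzymes that use coenzyme Q, differed between the genotypes. In 6 companion lists of 59 symbols, 57 were in the table and 55 were tested, and no gene was called in either direction by edgeR, DESeq2 or limma-voom. At the 0.226% of all genes called, a count of 0 in 55 is near the background. By edgeR 1 of the 55 had an unadjusted p under 0.05, against 12.9% of all genes tested, and 0 of 55 had groups without overlap, against 3.33%. The median log2 fold change of the 55 genes was -0.03, with 32 negative and 23 positive values.

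Of the other coenzyme Q pathway genes 10 were tested, with a median log2 fold change of -0.11 and 7 negative values. *Fdxr*, ferredoxin reductase, which passes electrons to the COQ6 reaction through ferredoxin, was at 30.6 ± 5.83 CPM in CTL and 23.2 ± 5.50 CPM in CKO (log2 fold change -0.40, standard error 0.20, edgeR adjusted p = 0.425). *Hpdl*, at 3 to 27 counts per library, was below the filter. The remaining UbiB kinase genes *Adck1*, *Adck2* and *Adck5* all had negative values, with *Adck5* at -0.24 (edgeR adjusted p = 0.500) and *Adck2* at -0.08 (0.860).

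Among the 9 isoprenoid precursor genes, 8 had negative values and the median log2 fold change was -0.17. *Pmvk*, phosphomevalonate kinase, was at 38.6 ± 4.69 CPM in CTL and 30.0 ± 6.91 CPM in CKO (-0.37, standard error 0.18, edgeR adjusted p = 0.409). *Ggps1*, which makes geranylgeranyl diphosphate, was the 1 gene of this list with a positive value (81.2 ± 4.39 and 91.6 ± 10.5 CPM, 0.17, edgeR adjusted p = 0.489). Most values of this list were thus negative, and no gene passed the test. The GC-richest quartile of all tested genes had a median log2 fold change of -0.17, and the GC-poorest 0.12. *Pmvk* (57.0% GC) falls in the former and *Ggps1* (40.1%) in the latter, while other GC-poor genes of this list had negative values. The part of GC content in the values of this list was not tested.

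The 13 tested enzymes that reduce ubiquinone, such as succinate dehydrogenase and the electron transfer flavoprotein system, had a median log2 fold change of -0.02. Their smallest p-values belonged to *Sqor*, sulfide quinone oxidoreductase (-0.29, edgeR adjusted p = 0.483), and *Nqo1*, a cytosolic quinone reductase (-0.43, edgeR adjusted p = 0.497). The 9 genes of complex III, which oxidises the reduced coenzyme, had a median of 0.02 with 7 positive values. Of these, *Uqcrb* was at 91.8 ± 6.09 CPM in CTL and 102.2 ± 5.46 CPM in CKO (0.16, edgeR adjusted p = 0.457) and *Uqcrc2* at 213 ± 5.80 and 228 ± 7.45 CPM (0.09, edgeR adjusted p = 0.517). For *Uqcrc2* the 95% interval of the log2 fold change ran from -0.03 to 0.22, so a large difference lies outside it.

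The 11 regulators of mitochondrial biogenesis had a median log2 fold change of 0.02, with 7 positive values. *Polrmt*, the mitochondrial RNA polymerase gene, was at 52.5 ± 9.37 CPM in CTL and 40.6 ± 8.09 CPM in CKO (-0.36, standard error 0.16, edgeR adjusted p = 0.375), and was the gene with an unadjusted p under 0.05 (0.0436). *Ppargc1b*, a coactivator of mitochondrial genes, was at 12.4 ± 2.90 and 16.2 ± 5.44 CPM (0.38, standard error 0.29, edgeR adjusted p = 0.624). No gene of this list had an edgeR adjusted p under 0.05. The transcript of *Polrmt* is GC-rich (60.5%), and the part of GC content in its value was not tested.

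**Figure D5:**
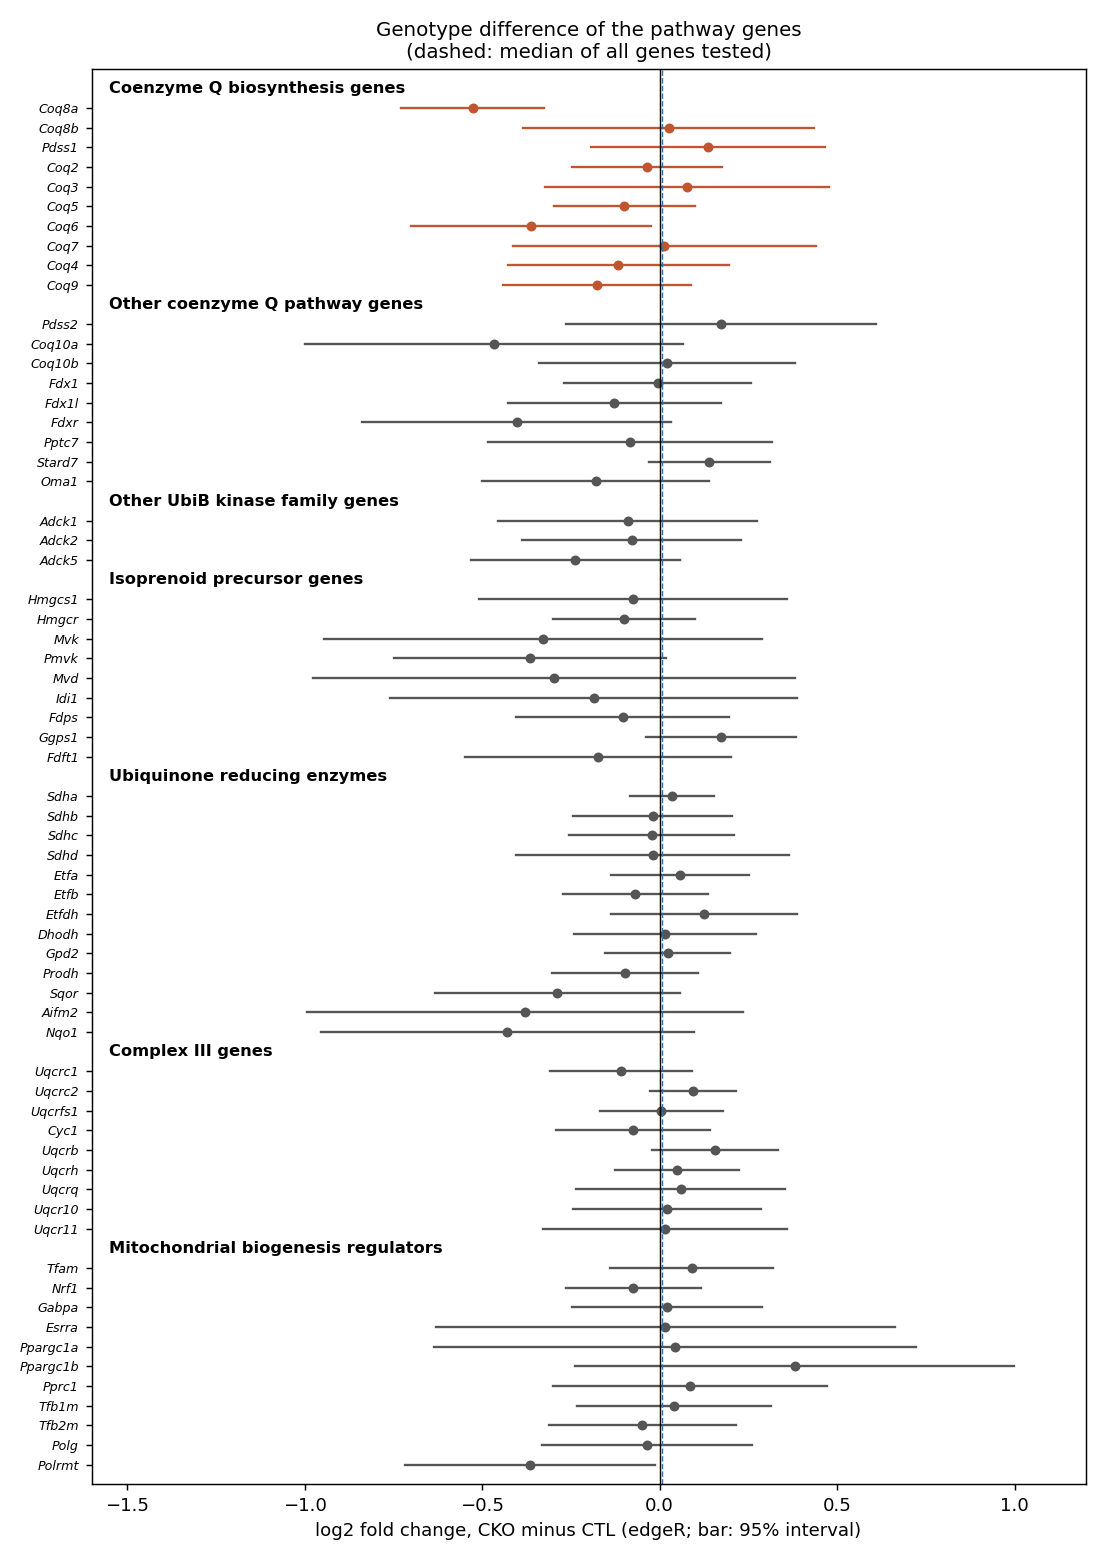
Log2 fold change (CKO minus CTL, edgeR) with 95% intervals for the 10 coenzyme Q genes (red) and the tested genes of the companion lists other than 1 (grey), with the median of all genes tested as a dashed line. The intervals are not adjusted for the number of genes, and the coenzyme Q genes were chosen with this comparison known, so theirs are a description. Those of *Coq8a*, *Coq6* and *Polrmt* lie below 0, and of these genes *Coq8a* alone was called over all genes.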

How the data were processed

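HISAT2 was used by the authors for alignment of single-end reads (GRCm38) and Rsubread for counting, and the deposited values are raw counts per gene symbol beside a gene length. The annotation, the strand setting, the handling of multi-mapped reads and any removal of duplicates are not given in the sources used here. Libraries were grouped by the genotype in their labels. The ages and strain come from the study's methods.

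Counts were analysed with edgeR 4.0.16 in R 4.3.3 (filterByExpr, TMM, robust quasi-likelihood F test, Benjamini-Hochberg adjustment over 14165 genes). Genes with an adjusted p under 0.05 and a fold change above 20% were called. A prior count of 2 was used for log2 CPM. The common biological coefficient of variation was 25.3%. TPM was computed from counts and the deposited lengths. Intervals of log2 fold changes are 95% intervals from the edgeR fit, not adjusted for the number of genes. Positions, exon overlaps and GC content came from GENCODE for GRCm38, and promoter windows from RefSeq.

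The members, the companion lists and the tests were chosen with earlier results of these data known. The genes named are the members, *Cited2*, of each companion list the 2 genes with the smallest p-value (none was called), and the 5 genes most correlated with *Coq8a*, the member with the largest difference. Of these, 1 companion gene is counted but not reported here by name. Genes that overlap a member, *Hpdl*, *Adck1* and the markers *Mpo* and *Elane* were named outside this rule. In the lists, *Fdx2* and *Sqrdl* are other names of genes in the table as *Fdx1l* and *Sqor*, and *Chdh* and *Hpdl* were below the filter. Alternatives were DESeq2 1.42.0, its size factors, other count filters, limma 3.58.1 (voom), a GC and length offset (loess, span 50%), a replicate block and leaving out each library. The scripts were tested on simulated data.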

Additional observations from a re-analysis of the deposited data

Results flagged for a closer look

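Of 22 sets of 5 libraries checked for a library far from the rest (the genes *Coq8a* to *Pdss1* and *Cited2* in each genotype), 1 was found. The library labelled CKO 3 had 120.1 CPM of *Cited2*, far above the other 4 CKO libraries at 3.80 to 8.30 CPM. Chance alone is taken to mark about 1 in 20 such sets at the criterion used, a gap to the next library above 0.71 of the range. The gap of the library labelled CKO 3 was 0.96 of the range, with 508 counts of *Cited2* against 16 to 36 in the other CKO libraries. For the coenzyme Q genes this library did not stand apart in the same way: its *Coq8a* level, 112.0 CPM, was among the other CKO values, and the log2 fold change of *Coq8a* without it was -0.51. No member had a library that met the criterion in either genotype.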

How the results depend on the processing

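The number of genes called moved with the processing more than the members' differences did. Against 32 genes by edgeR, DESeq2's Wald test called 341 (148 higher, 193 lower), the GC and length offset left 8, and the replicate block with that offset left 11. Leaving out each library in turn gave 8 (without CKO 2) to 42 (without the library labelled CKO 3). DESeq2's size factors, no filter, a minimum of 10 counts in every library and limma-voom gave 31, 32, 44 and 28. The replicate block alone called 24 genes, *Coq8a* included. Whether same-numbered libraries were prepared together is not given in the sources used here. Same-numbered libraries correlated at 0.01, -0.09, 0.21, 0.00 and 0.19 after genotype means were taken off. Libraries with different numbers correlated at -0.31 to 0.24. These values cannot settle whether the numbers pair the libraries.

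Of the members, 1 was called by edgeR, 0 with the offset and 0 with the replicate block and the offset, and 0 to 1 when a library was left out. *Coq8a* was called in 6 of the other 8 alternatives and in 1 of 10 fits that left out a library, and its log2 fold change stayed between -0.58 and -0.42 in all 18. Of the 18 alternatives, the direction changed in 9 for *Coq7*, in 4 each for *Coq8b*, *Coq2* and *Coq3*, in 1 for *Pdss1* and in 0 for *Coq4*, *Coq5*, *Coq6*, *Coq8a* and *Coq9*. All 180 member values moved by less than 1 SD of log2 CPM between libraries of a genotype (pooled over both), but the offset moved *Coq9* from -0.18 to -0.00, *Coq2* from -0.04 to 0.10 and *Coq8a* from -0.53 to -0.43, each by more than its standard error (0.12, 0.10 and 0.09). No companion gene was called under any of the 18. In the order of levels, 8 members took another rank when CPM was not divided by length, and 6 when the CKO libraries were used. The cause of these changes was not tested. Depth limits *Coq8b* most, at 79 to 118 counts per library.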
